A study of Mus musculus with 46 samples.

Results

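Fibroblasts of the mouse colon were chosen by their own UMI counts from 3 single-cell matrices, named Ime, Met and CT as deposited, as the cells with at least 200 detected genes, no molecule (UMI) of the epithelial gene Epcam, the leukocyte gene Ptprc or the endothelial gene Cdh5, and a UMI of at least 4 of the 6 genes Col1a1, Col1a2, Col3a1, Dcn, Lum and Pdgfra. The rule took 1351 of 25661 cells, 362 in the Ime matrix, 490 in the Met matrix and 499 in the CT matrix. Colonic fibroblasts build the collagen and proteoglycan scaffold of the lamina propria and submucosa. Subsets beneath the epithelium secrete WNT, BMP and growth factor ligands that pattern the crypt, and adventitial subsets line vessels and the deeper wall.

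The cells came from male C57BL/6J mice that drank imeglimin, metformin or control water for 12 weeks, and their dose is not given in the labels. Both drugs lower glucose; metformin belongs to the biguanides, and imeglimin, a tetrahydrotriazine, is related to it in structure. All 3 matrices stand under a single sample whose title names the control, so the link of Ime, Met and CT to imeglimin, metformin and control rests on the deposited names alone. Tissue was formaldehyde-fixed and profiled with 10x Fixed RNA Profiling, in which probe pairs for 19070 genes are counted. With 1 matrix per name there are no replicates, so no difference between matrices was tested, and intervals given below are 95% intervals of counting error only. Replicated bulk RNA-seq of colon was set beside the cells, from male C57BL/6J mice given 3 mg/mL imeglimin or metformin in drinking water, or control water, for 4 weeks, with 3 libraries a group.

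The matrices differed in depth. The median fibroblast held 849.5 UMIs in the Ime matrix, 3038.5 in the Met matrix and 1432 in the CT matrix, and the UMIs summed to 338812, 1848836 and 817100 in the same order. No complete cell barcode was shared between matrices, whereas the first 16 bases were shared by 625 barcodes of Ime and CT, 1686 of Met and CT, and 1007 of Ime and Met. For each pair of matrices, 3 fibroblasts had the first 16 bases of a fibroblast in the other matrix.

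The share of cells that met the rule was 7.65% in the Ime matrix (exact binomial interval 6.91 to 8.45%), 3.79% in the Met matrix (3.47 to 4.13%) and 6.24% in the CT matrix (5.72 to 6.79%). Depth moved this order. When each cell was first thinned to 1000 UMIs and shallower cells were left out, the share was 4.05% in the Ime matrix (118 of 2912 cells), 6.98% in the Met matrix (821 of 11754) and 6.54% in the CT matrix (401 of 6135). Ime was thus the highest matrix as deposited and the lowest after thinning. The negative genes acted unevenly too: of the cells with 4 or more of the 6 markers, an Epcam UMI removed 82 of 449 in the Ime matrix, 1868 of 2388 in the Met matrix and 253 of 759 in the CT matrix. No order of fibroblast abundance can be read from these shares.

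**Figure D1:**
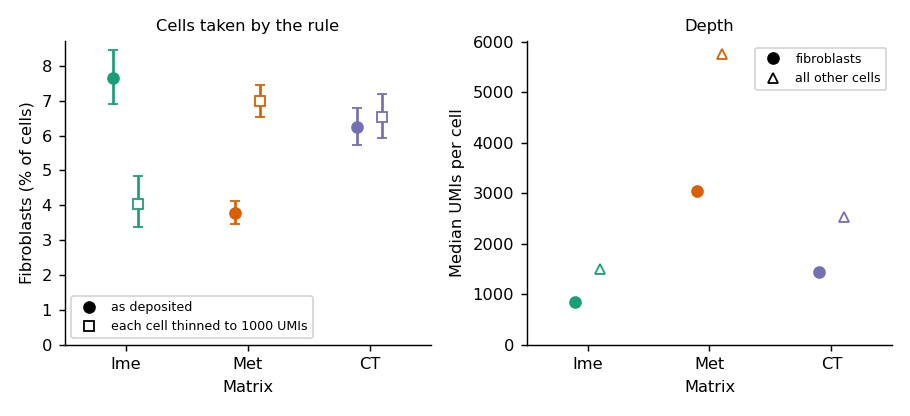
Left, share of cells that met the fibroblast rule in each matrix (% of cells, with exact binomial intervals of 95%), as deposited (filled circles) and after each cell was thinned to 1000 UMIs (open squares); right, median UMIs per cell of fibroblasts (filled circles) and of all other cells (open triangles). The Met matrix held the deepest cells, with a median of 3038.5 UMIs in fibroblasts and 5761 in other cells, and it had the lowest share as deposited and the highest after thinning.

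The 6 genes that chose the cells were led by the fibrillar collagens, at levels in CPM, a gene's summed UMIs scaled to a common total per matrix, that describe the rule and test nothing. Col3a1, the type III collagen chain, stood at 12792 CPM in the Ime matrix, 15209 in the Met matrix and 15652 in the CT matrix. Col1a2 stood at 5994, 8812 and 10295 CPM and Col1a1 at 4846, 7589 and 7880 CPM in the same order, so both type I collagen chains were lowest in the Ime matrix. The proteoglycans Dcn, decorin, and Lum, lumican, differed less, with 3052, 3405 and 2994 CPM of Dcn and 508, 522 and 501 CPM of Lum. Pdgfra, the PDGF receptor that marks fibroblasts, stood at 1142, 684 and 874 CPM. Averaged over the matrices, these genes were 46.9-fold (Col3a1) to 64.6-fold (Lum) above their mean level in all other cells.

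Just outside the threshold, the cells with 3 of the 6 markers numbered 155, 238 and 216 in the Ime, Met and CT matrices, and the 6 markers summed to 10661, 4855 and 7251 CPM in them. Just inside it, the cells with exactly 4 markers numbered 215, 169 and 208, with sums of 24097, 19115 and 28832 CPM. The smooth muscle myosin gene Myh11 stood at 2914, 6731 and 7341 CPM outside the threshold and at 205, 2506 and 1092 CPM inside it. Cells next to the threshold therefore carried more smooth muscle transcript, in each matrix, than those taken by it.

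Of all genes with a probe, 1253 had a mean of at least 20 CPM in the fibroblasts and at least 5 times their mean in all other cells. They are called fibroblast-concentrated below and include the 6 genes of the rule. The most abundant was Gsn, the actin-severing protein gelsolin, at 17635, 18810 and 19268 CPM in the Ime, Met and CT matrices. Ltbp4, which tethers latent TGF-beta to the matrix, stood at 3925, 6734 and 6414 CPM, and Fn1, fibronectin, at 3539, 4308 and 3352 CPM. Ccn2, a matrix-bound growth factor that TGF-beta and YAP induce, stood at 3807, 3279 and 2598 CPM. Dpt, dermatopontin, a collagen-binding protein, and Adamdec1, a metalloprotease of lamina propria stroma, were level across matrices, with 1812, 2089 and 2144 CPM of Dpt and 1992, 1990 and 1871 CPM of Adamdec1. Adamdec1 was detected in 51.7% of the fibroblasts of the Ime matrix, 55.3% of those of Met and 49.9% of those of CT. In Epcam-positive cells, which should lack it, the shares were 2.43% at a median of 2718.5 UMIs in Ime, 20.9% at 8173 UMIs in Met and 4.66% at 4608.5 UMIs in CT.

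The fibroblasts fell into 10 clusters at resolution 0.5, described here by their leading genes. There were 9 clusters at resolution 0.3, 12 at resolution 0.8 and 7 with each cell thinned to 1000 UMIs and shallower cells left out. The adjusted Rand index against the 10 clusters, which is 1 for the same grouping, was 0.74, 0.85 and 0.53 in that order. Cluster 1 (74 cells of the Ime matrix, 51 of Met and 68 of CT) was telocyte-like, named for the subepithelial fibroblasts that present BMP and WNT ligands at the crypt top. The 12 telocyte markers were all detected in it and summed to 10746 CPM, although 1 of them, Nrg1, was among its 10 leading genes. Among the 12 were Bmp5 at 2251 CPM and Wnt5a at 939 CPM. Cluster 2 (49, 105 and 98 cells) was adventitial-like, with all 12 trophocyte and adventitial markers detected and a marker sum of 9035 CPM. Of the markers, Ackr4, a scavenging chemokine receptor, was among its 10 leading genes, and Pi16, a peptidase inhibitor of adventitial fibroblasts, stood at 2656 CPM. Others were low in it, with Grem1 at 24.3, Rspo3 at 26.3 and Sfrp2 at 10.1 CPM. Grem1 stood at 555 CPM in cluster 5, Rspo3 at 211 CPM in cluster 7 and Sfrp2 at 374 CPM in cluster 4. Cluster 6 (5, 11 and 14 cells) had the highest sum of the same markers, 16074 CPM, with Pi16 among its 10 leading genes. Adamdec1 separated these groups, at 3575 CPM in cluster 1 and 14.2 CPM in cluster 2.

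Clusters 4 and 9 divided by matrix and stayed unnamed. Cluster 4 held 158 cells of the Ime matrix, 16 of Met and 183 of CT and was led by Plxdc1, Eln and Sfrp2. Cluster 9 held 0, 156 and 12 cells and was led by St6galnac5, Tnfsf13b, which encodes the B cell factor BAFF, and Wnt2b. Both had high Edil3, an integrin ligand, at 1079 and 950 CPM, and high C4b, a complement gene with a near-identical copy, at 2499 and 2400 CPM. They also had like levels of the chemokine Cxcl12, 2112 CPM in cluster 4 and 2477 CPM in cluster 9. The median cell held 1097 UMIs in cluster 4 and 4102 in cluster 9, and the part of depth in this division was not tested. Since the genes that divide these clusters also differ between the matrices, their sizes were not compared.

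Several clusters carried genes of other cells. Cluster 7 (3, 40 and 28 cells) had 8 smooth muscle markers among its 10 leading genes, a smooth muscle marker sum of 54775 CPM and a sum of only 9825 CPM for the 6 fibroblast markers, so its leading genes went against the fibroblast label. Cluster 3 (3, 4 and 8 cells) was led by Cldn5, Egfl7, Fabp4 and Pecam1 of endothelium. Together they made up 86 fibroblasts by the rule, 6 in the Ime matrix, 44 in Met and 36 in CT. Cluster 0 (59, 83 and 64 cells) was led by Col6a5, Cdh19, Cd163 and Cd36 and included the macrophage genes Mrc1 and Stab1 among its leading genes, and it stayed unnamed. Its macrophage markers summed to 912 CPM, beside 70.9 CPM in cluster 2, and its fibroblast markers to 47773 CPM, the highest sum of any cluster. Its B and plasma cell markers summed to 7923 CPM, beside 259 CPM in cluster 2, and were also the highest of any cluster, with the immunoglobulin gene Ighd among its 10 leading genes. Cluster 5 (8, 15 and 14 cells) was led by Clu, Ccl19 and Tnfsf11 and stayed unnamed; it also held the highest C3, the central complement component, at 5191 CPM. Cluster 8 (3, 9 and 10 cells), led by Adra1a, Fibin and Cacna1g, was unnamed too.

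**Figure D2:**
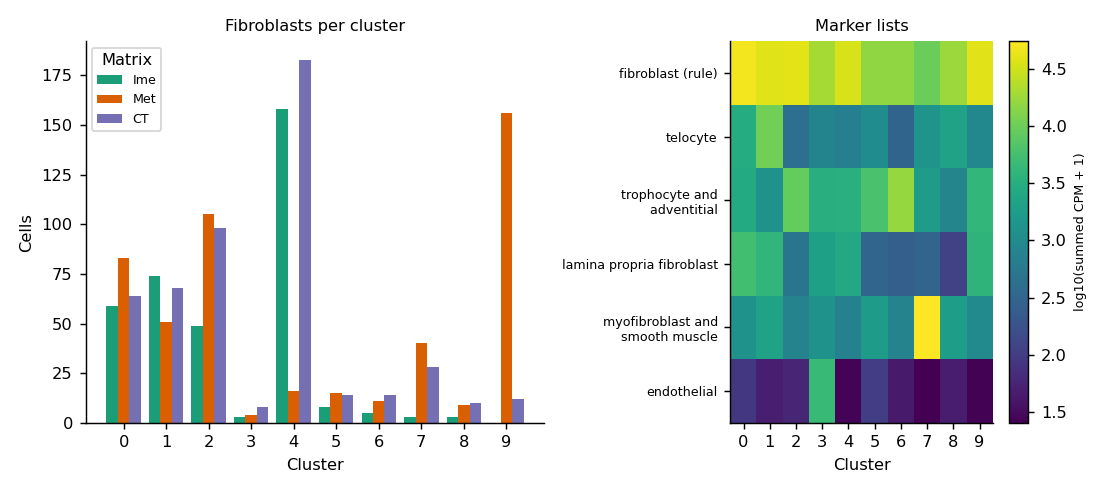
Left, number of fibroblasts of each matrix in each of the 10 clusters; right, summed level of marker lists per cluster as log10(summed CPM + 1). Clusters 4 and 9 divide by matrix, telocyte markers stand highest in cluster 1 (10746 CPM), and smooth muscle markers stand highest in cluster 7 (54775 CPM).

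Between the Ime and CT matrices, smooth muscle and epithelial markers were lower in Ime fibroblasts, with 7 of 9 and 4 of 7 counted members past 2-fold lower. Among fibroblast-concentrated genes, Gas1, Inmt, Pi16 and Cd248 were lower, and Nrg1 and Adamts3 were higher. Of 3141 genes with at least 100 UMIs over both matrices, 17 were 2-fold or more higher (0.541%) and 49 were 2-fold or more lower (1.56%). Among fibroblast-concentrated genes, 4 and 13 of 635 did so, and their median log2 ratio was -0.05, beside 0.06 over all genes counted. Ime and CT fibroblasts thus shared most levels to within 2-fold.

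Pi16 had 387 CPM in the Ime matrix against 945 CPM in the CT matrix, a log2 ratio of -1.29 (-1.57 to -1.02). Cd248, endosialin of perivascular stroma, had 148 CPM against 361 CPM (-1.29, -1.75 to -0.85). Gas1, a hedgehog co-receptor, had 32.5 CPM against 119 CPM (-1.87, -2.92 to -0.97). Inmt, an amine methyltransferase, had 38.4 CPM against 122 CPM (-1.67). Inmt was among the 10 leading genes of cluster 2. In all other cells of the same matrices the log2 ratio was -0.62 for Pi16, -1.55 for Cd248, -0.94 for Gas1 and -0.89 for Inmt, so these genes were lower outside the fibroblasts as well. Pi16 was detected in 11.9% of Ime fibroblasts and 20.4% of CT fibroblasts. After thinning, which left out shallower cells, it was detected in 5 of 119 Ime cells (4.20%, exact binomial interval 1.38 to 9.53%). In CT it was detected in 70 of 387 (18.1%), and its log2 ratio was -2.65. Thinning kept 32.9% of Ime and 77.6% of CT fibroblasts. Pi16 stood highest in clusters 6 and 2. Their median cells held 616 and 722 UMIs in Ime and 1078.5 and 1113.5 in CT. Over all fibroblasts the medians were 849.5 and 1432. The part of this loss of cells in the thinned ratio was not tested. With at least 5 markers asked of a cell, the ratio of Pi16 was -0.86, and the ratio of Cd248 after thinning was -0.81. Within cluster 2, Pi16 stood at 2422 CPM in Ime (49 cells) and 4053 CPM in CT (98 cells). Of 8 trophocyte and adventitial markers counted, 0 were past 2-fold higher and 1 lower, Pi16, and their median was -0.50, with -0.46 in other cells.

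Nrg1, neuregulin 1, an EGF-family ligand for epithelial ERBB receptors, was higher in Ime fibroblasts, with 487 CPM against 231 CPM in CT (1.07, 0.76 to 1.38). It was detected in 17.7% of Ime fibroblasts and 11.02% of CT fibroblasts, against 1.00% and 1.29% of Epcam-positive cells. In cluster 1 it stood at 2011 CPM in Ime (1696 to 2367) and 1244 CPM in CT (1061 to 1450). In other cells its log2 ratio was 1.35, and after thinning the fibroblasts' ratio was 1.60. Adamts3, which cleaves procollagen and VEGF-C precursors, had 236 CPM in Ime against 105 CPM in CT (1.17, 0.71 to 1.62), with 0.95 in other cells. In cluster 1 it stood at 684 CPM in Ime and 387 CPM in CT. The telocyte list as a whole had 1 of 8 members past 2-fold, Nrg1, and a median of 0.21. Its Bmp5 stood at 888 CPM in Ime and 663 CPM in CT (0.42, 0.21 to 0.63).

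Matrix genes other than the rule's were mostly close in these 2 matrices. Of 17 other collagens, 31 matrix glycoproteins and 20 remodelling genes counted, 0 were past 2-fold, with medians of -0.14, -0.24 and -0.04. Col12a1, a fibril-associated collagen, was the farthest collagen upward at 428 CPM in Ime against 264 CPM in CT (0.70, 0.38 to 1.01), and Col8a1 the farthest downward at 59.0 CPM against 113 CPM (-0.93). Type I collagen, which the rule used, had log2 ratios of -0.70 for Col1a1 and -0.78 for Col1a2, with -0.64 and -0.70 in other cells. Ltbp4 had -0.71 here and -0.73 in other cells. Each of these 3 genes was therefore lower by a like amount in cells outside the rule.

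Among genes not concentrated in fibroblasts, smooth muscle genes were lowest in Ime. Tagln, the actin-binding protein transgelin, had 91.5 CPM in Ime against 431 CPM in CT (-2.24), and the calponin Cnn1 had 14.8 CPM against 116 CPM (-2.98, -4.63 to -1.70). Of 9 smooth muscle markers counted, 7 were past 2-fold lower, with a median of -1.74, beside 0.06 in other cells. Without clusters 3 and 7 the median was 0.21. Hhip, the hedgehog decoy receptor, belongs to this list and had 38.4 CPM against 130 CPM (-1.76), and 83 of its 106 UMIs in CT fibroblasts came from cluster 7. With at least 3 markers asked of a cell, its ratio was -0.40. Epithelial markers were lower too, 4 of 7 past 2-fold with a median of -1.0, and -0.44 in other cells. Their sum in fibroblasts was 2090 CPM in Ime and 3539 CPM in CT, against 39670 and 51846 CPM in Epcam-positive cells. The goblet cell mucin gene Muc2 was detected in 20.7% of Ime and 60.5% of CT fibroblasts, against 65.3% and 88.9% of Epcam-positive cells. The part of epithelial RNA in the differences above was not tested.

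MHC class II genes, which present antigen to T cells, were higher in Ime fibroblasts, by more than in other cells. H2-Eb1 had 319 CPM in Ime against 114 CPM in CT (1.49, 1.07 to 1.90), with 0.29 in other cells, and the invariant chain Cd74 had 717 CPM against 352 CPM (1.02, 0.77 to 1.28), with 0.07 in other cells. With at least 3 markers asked of a cell, H2-Eb1 stood at 0.84. The median of the 3 genes counted was 1.02. With the genes counted anew, it was 0.46 with at least 3 markers asked of a cell and 0.15 with at least 5. Macrophage markers moved with them, summing to 325 CPM in Ime and 170 CPM in CT fibroblasts, with 0 markers at 0 UMIs of 7 in either matrix. The class II list stood highest in cluster 0 (3705 CPM), which also had the highest macrophage sum and the highest B and plasma cell sum. Over all fibroblasts, B and plasma cell markers summed to 2155 CPM in Ime and 2265 CPM in CT. The part of macrophage and B cell transcripts in the class II difference was not tested. Gbp2, an interferon-induced GTPase, had 168 CPM in Ime against 73.4 CPM in CT (1.20), with 1.00 in other cells. Ctrb1, a pancreatic zymogen gene, was higher in both (230 CPM against 58.7 CPM in fibroblasts, 1.97, and 2.17 in other cells).

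**Figure D3:**
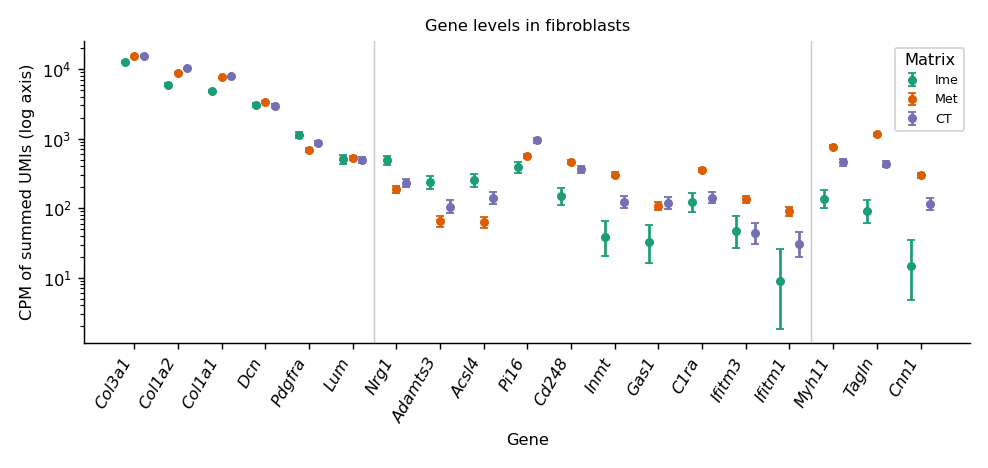
Levels of 19 genes in the fibroblasts of the Ime, Met and CT matrices, as CPM of the summed UMIs on a log axis with exact Poisson intervals of 95%; the first block holds the genes of the rule and the last block smooth muscle genes. Nrg1 stands at 487, 187 and 231 CPM, Pi16 at 387, 561 and 945 CPM and C1ra at 124, 353 and 142 CPM.

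Between the Met and CT matrices, 8 of 12 mitochondrially encoded genes counted were past 2-fold higher in Met fibroblasts, although their median turned negative without cells holding UMIs of other types. C1ra and Ifitm3 were higher, and Stx1a, Acsl4 and Vegfa were lower. Of 6800 genes with enough UMIs, 190 were 2-fold or more higher (2.79%) and 50 lower (0.735%). Among fibroblast-concentrated genes, 13 and 11 of 1010 did so, with a median of -0.00, beside -0.04 over all genes counted. The Ime and Met comparisons share the CT matrix.

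C1ra, a protease that starts the classical complement pathway, had 353 CPM in the Met matrix against 142 CPM in the CT matrix (1.31, 1.03 to 1.61). The antiviral membrane protein Ifitm3 had 134 CPM against 44.1 CPM (1.61, 1.10 to 2.15). Its near-identical relative Ifitm1, whose probes may not separate the family fully, had 89.8 CPM against 30.6 CPM (1.55). These were higher in other cells as well, with log2 ratios of 1.76 for C1ra, 1.67 for Ifitm3 and 1.87 for Ifitm1. Of 9 complement genes counted, C1ra alone was past 2-fold. Serping1, the inhibitor of C1 proteases, stood at 1644 CPM in Met and 1034 CPM in CT (0.67). Of 16 interferon-induced genes, 2 were past 2-fold, Isg15 (52.5 CPM against 11.01 CPM, 2.25) and Irf7 (108 CPM against 33.0 CPM, 1.7), with 3.10 and 2.42 in other cells. The list's median was 0.16 in fibroblasts and 0.71 in other cells.

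Stx1a, a vesicle fusion protein, was the farthest fibroblast-concentrated gene downward, with 33.0 CPM in Met against 95.5 CPM in CT (-1.53, -2.04 to -1.03) and -1.38 in other cells. Acsl4, which loads polyunsaturated fatty acids into lipids, had 62.7 CPM against 141 CPM (-1.17, -1.55 to -0.78), with -0.48 in other cells. Ccl19, a chemokine for lymphocytes, had 30.3 CPM against 79.5 CPM (-1.39), with -0.12 in other cells. Vegfa, the vascular growth factor, had 96.3 CPM against 268 CPM (-1.48, -1.77 to -1.19), with -0.84 in other cells. Of these 4 genes, Ccl19 and Acsl4 had the widest gaps between fibroblasts and other cells. Ccl19 was concentrated in cluster 5, at 1439 CPM, a cluster of 15 Met and 14 CT cells.

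Matrix genes other than Cilp stayed within 2-fold between Met and CT among those named here in the main setting, and elastin did not in others. Of 17 other collagens and 33 matrix glycoproteins counted, 0 were past 2-fold, with medians of 0.16 and 0.21, beside 1.01 for the collagens in other cells. Fbln1, fibulin 1, had 2362 CPM in Met against 1246 CPM in CT (0.92, 0.82 to 1.02). Eln, elastin, had 1780 CPM against 3222 CPM (-0.86, -0.93 to -0.78). Its ratio was -1.32 after thinning, -1.15 by the mean CPM per cell and -1.07 without cells holding UMIs of other types. Cilp, a matrix protein that binds TGF-beta, had 232 CPM against 106 CPM (1.12, 0.79 to 1.47). Of these, Cilp alone was past 2-fold in the main setting. In cells outside the rule, the 6 rule markers had a median of 1.17 in Met over CT. Those cells include the ones with 4 or more markers that a negative gene removed, 1898 in Met and 260 in CT. The part of such cells in this ratio was not tested. Col1a1 was detected in 38.3% of Epcam-positive cells in Met and 12.2% in CT, and in 15.1% and 5.62% after thinning.

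Crypt niche genes had a median of -0.01 in Met over CT fibroblasts and 0.77 in other cells, over 24 genes counted. Grem1, a BMP antagonist, had 118 CPM in Met against 59.97 CPM in CT (0.98, 0.52 to 1.45). The hedgehog target Gli1 had 435 CPM against 255 CPM (0.77), while the ligands Bmp5 with 447 CPM against 663 CPM (-0.57), Wnt5a with 163 CPM against 219 CPM (-0.43) and Nrg1 with 187 CPM against 231 CPM (-0.31) were lower. These 3 ligands of cluster 1 were each higher in other cells of Met, with log2 ratios of 1.01, 1.36 and 1.13. Those other cells include the marker-bearing cells that a negative gene removed.

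Mitochondrially encoded transcripts were higher in Met, with 8 of 12 genes past 2-fold higher and 1 lower, and a median of 1.10 in fibroblasts and 0.70 in other cells. Without cells holding a UMI of 8 genes of other types, which left 32 Met and 150 CT fibroblasts, the median was -0.50. The ATP synthase gene mt-Atp6 had 666 CPM in Met against 187 CPM in CT (1.83, 1.59 to 2.08), and the complex I gene mt-Nd4 had 64.4 CPM against 12.2 CPM (2.39). mt-Nd6, the light-strand complex I gene, went the other way, with 279 CPM in Met against 717 CPM in CT (-1.36), and it was 1520 CPM in Ime (1.08 over CT). Of 31 nuclear-encoded genes of complexes II to V, 6 were past 2-fold higher, such as Uqcr10 (61.7 CPM against 15.9 CPM, 1.95) and Uqcrb (104 CPM against 35.5 CPM, 1.56), with a median of 0.35 and 0.48 in other cells. Nuclear-encoded complex I genes had 1 of 29 past 2-fold and a median of 0.02.

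Transcripts of other cells were also higher in Met fibroblasts. Smooth muscle markers had 8 of 12 members past 2-fold higher and a median of 1.24, and 0.45 without clusters 3 and 7, which held 82.0% of the list's UMIs in Met and 68.9% in CT. Epithelial markers had 5 of 15 past 2-fold higher with a median of 0.78, and summed to 5997 CPM in Met and 3539 CPM in CT. Among all genes outside the fibroblast-concentrated set, those farthest upward were epithelial: Slc9a3, a sodium-proton exchanger, had 143 CPM in Met against 18.4 CPM in CT (2.96), and the adhesion gene Ceacam1 had 387 CPM against 59.97 CPM (2.69). Both were more abundant in other cells, at 1239 CPM for Slc9a3 and 4553 CPM for Ceacam1 in Met. Muc2 was detected in 98.0% of Met fibroblasts and 60.5% of CT fibroblasts, against 99.4% and 88.9% of Epcam-positive cells. The part of epithelial RNA in the mitochondrial and interferon differences was not tested.

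**Figure D4:**
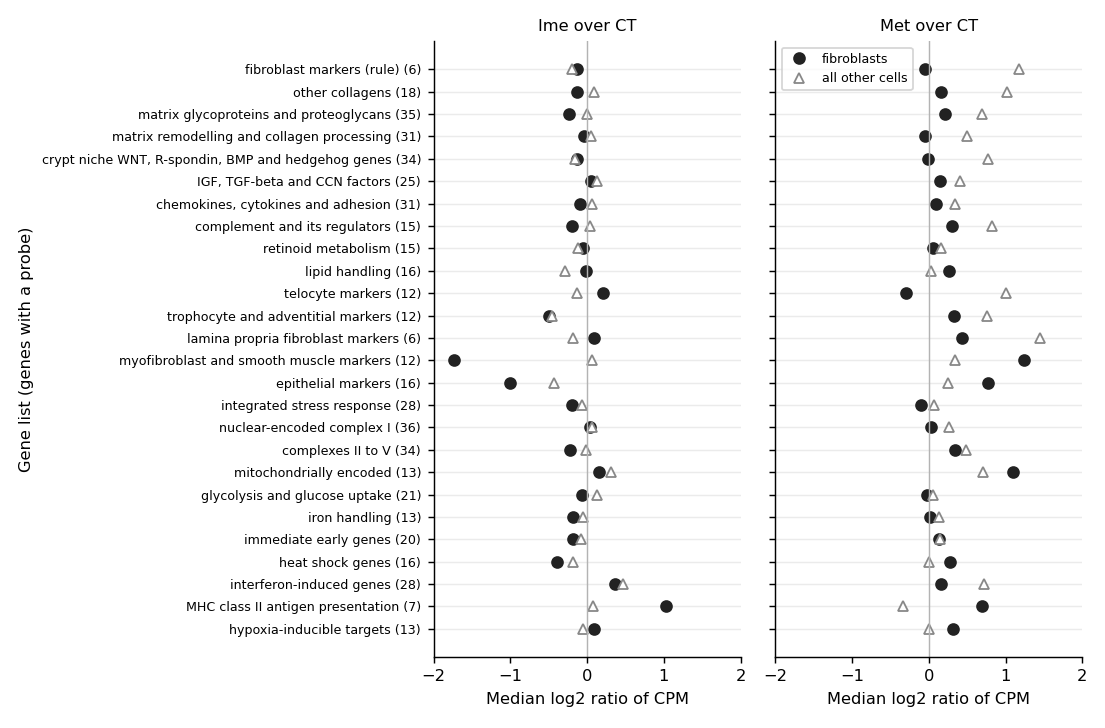
Median log2 ratio of CPM over the counted members of each gene list, Ime over CT (left) and Met over CT (right), in fibroblasts (filled circles) and in all other cells (open triangles); the number of genes with a probe stands in parentheses. Smooth muscle markers are farthest from 0 in fibroblasts, at -1.74 in Ime over CT and 1.24 in Met over CT, and mitochondrially encoded genes stand at 1.10 in Met over CT.

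Ime and Met fibroblasts differed from each other by more genes than either did from CT, and they were the shallowest and the deepest matrix. Of 5906 genes counted, 279 were 2-fold or more higher in Ime (4.72%) and 465 lower (7.87%), and of 923 fibroblast-concentrated genes 41 and 95 did so. Acsl4 was the farthest upward, with 251 CPM in Ime against 62.7 CPM in Met (2.00, 1.58 to 2.42). Adamts3 followed with 236 CPM against 64.9 CPM (1.86), and Plau, the urokinase that activates plasmin, had 602 CPM against 214 CPM (1.49, 1.24 to 1.74). The CT level lay between them in all 3 genes, at 141 CPM for Acsl4, 105 CPM for Adamts3 and 365 CPM for Plau. Plau and Acsl4 were high in cluster 1, where Plau stood at 2472 CPM in Ime, 1481 CPM in Met and 1889 CPM in CT.

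Lower in Ime than in Met were Ifitm1, with 3 UMIs or 8.85 CPM in Ime against 89.8 CPM in Met (-3.34, -5.63 to -1.77), and Inmt, with 38.4 CPM against 302 CPM (-2.98). Rbp4, a retinol carrier, had 20.7 CPM against 117 CPM (-2.51, -3.84 to -1.44), and Fzd2, a WNT receptor, had 14.8 CPM against 88.7 CPM (-2.59). Inmt was 122 CPM in CT, so its 3 levels ran Ime, CT, Met. Smooth muscle markers had 11 of 12 members past 2-fold lower in Ime than in Met, with a median of -2.56, and -0.41 without clusters 3 and 7. Epithelial markers had 13 of 15 past 2-fold lower, with a median of -1.56.

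Ratios in fibroblasts and in all other cells were related across genes in each comparison. Pearson's r across genes was 0.56 for Ime over CT (3138 genes), 0.60 for Met over CT (6800 genes) and 0.70 for Ime over Met (5906 genes), with both ratios taken from the same libraries and genes not being independent. Of the genes past 2-fold in fibroblasts, 7 of 66, 72 of 240 and 327 of 744 were past 2-fold in the same direction in other cells too.

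The bulk libraries asked whether genes concentrated in fibroblasts differed in replicated colon after 4 weeks of drug. The 9 libraries held 32236291 to 44373717 counts each. Of the 1253 fibroblast-concentrated genes, 1236, the 6 of the rule included, were among the 18665 genes tested. With metformin over control, 269 of them fell (21.8%, where 8.04% of all genes tested fell) and 7 rose (where 11.6% of all did), by edgeR's quasi-likelihood test at a Benjamini-Hochberg adjusted p of 0.05. With imeglimin over control, 69 fell (5.58%, where 5.07% of all did) and 6 rose (where 7.97% of all did). The median log2 fold change of the set was -0.35 with metformin and -0.20 with imeglimin, beside -0.05 and -0.02 over all genes. In bulk tissue, fewer fibroblasts and less RNA per fibroblast cannot be told apart. Whether libraries came from separate animals is not stated, so the p-values cover the spread among these libraries, which may be technical.

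By DESeq2, 348 genes of the set fell with metformin and 116 with imeglimin. No share over all genes was counted by DESeq2 or with a library left out, so these counts have no background beside them. The edgeR counts changed with the library left out, and a fit on fewer libraries can call fewer genes of any set. The 269 genes that fell with metformin were 100 without metformin 2, 127 without metformin 3, 128 without control 1, 139 without control 3 and 162 without control 2. The 69 that fell with imeglimin were 25 without control 1, 28 without imeglimin 1, 29 without control 3, 30 without imeglimin 3 and 43 without control 2. The set's mean log2(CPM + 1) was 3.02, 3.19 and 3.04 in the imeglimin libraries, 2.98, 2.95 and 2.96 in the metformin libraries and 3.27, 3.24 and 3.24 in the controls. Both drug groups lay below every control, and imeglimin 2 lay nearest to the controls. Within replicate numbers 1, 2 and 3, which the labels also give as batches, the level with imeglimin minus that of the control was -0.25, -0.05 and -0.19, and with metformin it was -0.29, -0.29 and -0.27.

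The collagen genes of the rule fell with both drugs. Col3a1 had 260, 304 and 234 CPM with imeglimin, 268, 243 and 250 CPM with metformin and 500, 390 and 335 CPM in controls. Its log2 fold change was -0.62 ± 0.14 (SE) with imeglimin and -0.69 ± 0.14 with metformin, with edgeR adjusted p = 0.0217 and 0.00919. Col1a1 had 66.4, 69.0 and 51.5 CPM with imeglimin, 64.3, 59.9 and 59.3 CPM with metformin and 109, 87.9 and 79.8 CPM in controls (-0.57 ± 0.13 and -0.59 ± 0.13, edgeR adjusted p = 0.0230 and 0.0130). No drug library of either gene overlapped the controls, among which control 1 was highest. Col1a2 fell with imeglimin and with metformin (-0.50 ± 0.12 and -0.55 ± 0.12, edgeR adjusted p = 0.0235 and 0.0113). Lum and Pdgfra fell with metformin (edgeR adjusted p = 0.0295 and 0.0212) and had adjusted p = 0.124 and 0.0909 with imeglimin. Dcn did not pass in either comparison (-0.34 and -0.38, edgeR adjusted p = 0.221 and 0.145).

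With imeglimin, the collagen calls rested on single libraries. For Col1a1, leaving out control 1 gave an edgeR adjusted p of 0.0706 and leaving out imeglimin 3 gave 0.0527. Col3a1 had 0.0609 without control 1, 0.0624 without imeglimin 1 and 0.0638 without imeglimin 3, and Col1a2 had 0.0731, 0.0510 and 0.0647 without the same libraries. With metformin, the 3 collagens passed with any library left out. Lum did not pass without control 1 (0.102), control 2 (0.0742), metformin 1 (0.0723) or metformin 2 (0.0912), nor did Pdgfra without control 1 (0.0735), control 3 (0.0581), metformin 2 (0.0857) or metformin 3 (0.0715). Pdgfra with imeglimin passed without imeglimin 2 (0.0401).

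**Figure D5:**
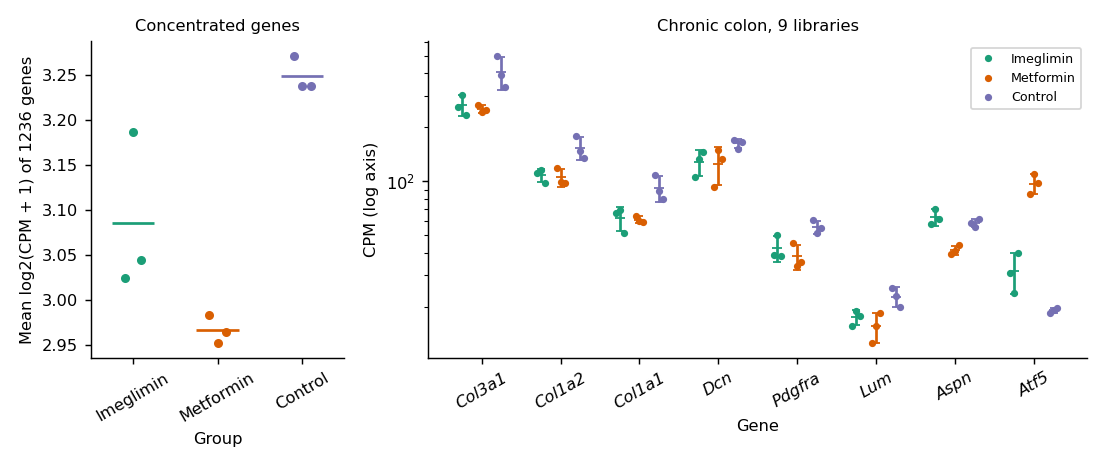
Left, mean log2(CPM + 1) of the 1236 tested fibroblast-concentrated genes in each of the 9 chronic colon libraries, with group means as lines; right, CPM (log axis) of 8 genes in each library, with mean ± SD. Col3a1 had 260, 304 and 234 CPM with imeglimin, 268, 243 and 250 CPM with metformin and 500, 390 and 335 CPM in controls, while Atf5 was highest with metformin, at 84.7, 110 and 97.6 CPM.

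The collagen, glycoprotein, niche, growth factor, telocyte and adventitial lists fell in larger shares than all genes with metformin, where 8.04% of all fell. With imeglimin, where 5.07% of all fell, some of these lists did so and others had 0 genes falling. Of 18 other collagens, 12 fell with metformin (66.7%) and 3 with imeglimin (16.7%), with 0 rising. Of 35 matrix glycoproteins and proteoglycans, 16 (45.7%) and 4 (11.4%) fell in the same order, with 0 rising. Their median log2 fold changes were -0.53 and -0.35 for collagens and -0.37 and -0.26 for glycoproteins, metformin and imeglimin in that order. Of 34 crypt niche genes, 8 fell with metformin (23.5%) and 0 fell with imeglimin. Of 25 IGF, TGF-beta and CCN factors, 9 (36%) and 3 (12%) fell in the same order. Of 12 telocyte markers, 3 fell (25%) and 1 rose with metformin and 0 moved past the threshold with imeglimin. Of 12 trophocyte and adventitial markers, 4 fell (33.3%) and 1 rose with metformin, and 1 fell with imeglimin (8.33%). Other lists fell less or went both ways with metformin. Of 31 matrix remodelling genes 4 fell (12.9%) and 1 rose, and of 30 chemokine, cytokine and adhesion genes 4 fell (13.3%) and 1 rose. Of 16 lipid handling genes 4 fell and 4 rose, and of 14 retinoid metabolism genes 0 fell.

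Markers of other cell types were read in bulk as well, and not all of them went the same way. Of all genes tested, 8.04% fell and 11.6% rose with metformin, and 5.07% fell and 7.97% rose with imeglimin. Of 12 smooth muscle markers, 10 fell with metformin (83.3%), at a median of -0.50, and 0 did with imeglimin. Their mean log2(CPM + 1) was 8.10, 8.53 and 8.35 in imeglimin libraries, 8.14, 7.96 and 8.09 in metformin libraries and 8.53, 8.54 and 8.52 in controls. Of 16 epithelial markers, 7 rose (43.75%) and 1 fell (6.25%) with metformin, and 2 rose (12.5%) and 1 fell (6.25%) with imeglimin. B and plasma cell markers had medians of -1.36 with metformin and -0.90 with imeglimin, with 0 of 8 past the threshold in either. Their mean log2(CPM + 1) was 5.03, 4.50 and 3.98 in imeglimin libraries, 5.17, 3.09 and 3.12 in metformin libraries and 5.14, 5.26 and 5.33 in controls, so metformin 2 and 3 stood far below metformin 1. T cell markers had medians of -0.82 with metformin, where 1 of 8 fell (12.5%), and -0.15 with imeglimin, where 0 passed. Glia and neuron markers had medians of -0.45 with metformin, where 2 of 10 fell (20%), and 0.01 with imeglimin, where 0 passed. Endothelial markers had medians of 0.004 with metformin, where 1 of 10 fell (10%), and 0.16 with imeglimin, where 0 passed. The T cell and endothelial shares lay near that of all genes and rest on 1 gene each. Mesothelial markers had medians of 1.02 with metformin and 1.30 with imeglimin, with 0 of 5 past the threshold in either. The part of a changed mixture of cell types in the fall of fibroblast genes was not tested.

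Among the fibroblast-concentrated genes with the smallest p were Slc43a3 and Atf5 upward and Hspa12a and Igf1r downward. Slc43a3, a purine transporter, had 72.7, 77.6 and 124 CPM with imeglimin, 123, 149 and 155 CPM with metformin and 33.4, 32.2 and 31.9 CPM in controls (1.49 ± 0.18 and 2.13 ± 0.19, edgeR adjusted p = 0.00308 and 0.000205). In single cells its log2 ratio was -0.30 in Ime and 0.58 in Met fibroblasts over CT, and 1.28 and 2.22 in other cells. Atf5, a transcription factor of the mitochondrial stress response, had 30.9, 24.0 and 40.1 CPM with imeglimin, 84.7, 110 and 97.6 CPM with metformin and 18.5, 19.3 and 19.8 CPM in controls. It rose by 2.34 ± 0.17 with metformin (edgeR adjusted p = 7.62e-05), and was lower with imeglimin than with metformin by -1.62 ± 0.16 (edgeR adjusted p = 0.00740). In single cells its ratio was -0.48 in Ime and -0.07 in Met fibroblasts over CT, and -0.21 and 0.90 in other cells. For both genes, the direction seen in metformin bulk tissue was larger in cells outside the rule than in fibroblasts.

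Atf5 with imeglimin over control stood at 0.72 ± 0.16 (edgeR adjusted p = 0.0203), and its adjusted p was 0.0684, 0.0540 and 0.0637 without control 1, 2 and 3 and 0.0516 without imeglimin 1. Hspa12a, an atypical HSP70 protein, had 5.63, 7.50 and 9.82 CPM with imeglimin, 9.06, 8.28 and 9.79 CPM with metformin and 22.8, 15.5 and 25.4 CPM in controls (-1.47 ± 0.22 and -1.23 ± 0.22, edgeR adjusted p = 0.00473 and 0.00466). Igf1r, the IGF-1 receptor, had 29.4, 30.3 and 27.8 CPM with imeglimin, 27.9, 24.0 and 27.1 CPM with metformin and 46.7, 41.3 and 39.5 CPM in controls (-0.54 ± 0.09 and -0.69 ± 0.09, edgeR adjusted p = 0.00598 and 0.000874). No drug library overlapped the controls in Hspa12a or Igf1r. In fibroblasts, Igf1r stood at 106 CPM in Ime, 162 CPM in Met and 96.7 CPM in CT, so Met fibroblasts were higher (0.74, 0.38 to 1.12) where metformin bulk tissue was lower.

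Genes that stood out in the single cells were read in bulk as well. Stard9, a mitotic kinesin, was higher in Met over CT fibroblasts (101 CPM against 33.0 CPM, 1.61) and fell in bulk with imeglimin and with metformin (-0.73 ± 0.14 and -0.84 ± 0.14, edgeR adjusted p = 0.0114 and 0.00362). Cilp was higher in Met fibroblasts (1.12) and fell in bulk with metformin (-0.92 ± 0.19, edgeR adjusted p = 0.0103), while with imeglimin over control it passed only in the fit with the replicate number as a block (-0.51, edgeR adjusted p = 0.0425) or without imeglimin 2 (0.0406). Ikbip, an endoplasmic reticulum protein linked to NF-kB signalling, was lower in both: 135 CPM in Met against 285 CPM in CT fibroblasts (-1.08), and -0.72 ± 0.13 with metformin in bulk (edgeR adjusted p = 0.0051). Nrg1, Pi16, Cd248, Gas1, Inmt, C1ra, Ifitm1 and Ifitm3 did not pass the edgeR threshold in bulk with either drug, and Cd248 passed by DESeq2 with metformin (-0.65, adjusted p = 0.0446). The cells had 12 weeks of drug and the bulk tissue 4 weeks, and the measures were not tested against each other.

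Imeglimin and metformin, which were given to bulk animals at the same drinking-water concentration and for the same time, were also compared directly. Of all genes tested, 27 were higher (0.145%) and 87 lower (0.466%) with imeglimin than with metformin by edgeR's quasi-likelihood test. Of the 1236 fibroblast-concentrated genes, 2 were higher, Aspn and Mfap3l, and 1 was lower, Atf5, with a set median of 0.15. DESeq2 called 44 of the set higher and 5 lower, with no share over all genes counted. By edgeR, those higher numbered 12 without imeglimin 3, 3 without imeglimin 1, 1 without metformin 1 and 0 without imeglimin 2, metformin 2 or metformin 3, and those lower numbered 3 without imeglimin 3. Aspn, asporin, a small leucine-rich proteoglycan, had 57.9, 70.6 and 61.4 CPM with imeglimin, 39.2, 41.0 and 44.0 CPM with metformin and 58.6, 55.9 and 61.7 CPM in controls. It fell with metformin over control (-0.50 ± 0.09, edgeR adjusted p = 0.00379) and was higher with imeglimin than with metformin (0.61 ± 0.09, edgeR adjusted p = 0.0202). That last call was lost without imeglimin 2 (0.0875), metformin 1 (0.0625), metformin 2 (0.0812) or metformin 3 (0.0681). Mfap3l, a membrane protein, was 0.80 ± 0.14 higher with imeglimin than with metformin (edgeR adjusted p = 0.0435), which became 0.0676 with the replicate block and 0.0625 to 0.161 without imeglimin 1, imeglimin 2 or any metformin library. In fibroblasts, Aspn stood at 251 CPM in Ime, 242 CPM in Met and 322 CPM in CT, so the Ime and Met matrices differed by 0.05 (-0.30 to 0.39).

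Organic cation transporters, which carry metformin, were scarce in the fibroblasts, at a summed 38.4 CPM in Ime, 60.6 CPM in Met and 47.7 CPM in CT over 9 genes. Slc22a2 and Slc29a4 had 0 UMIs in all 3 matrices, which allows a share of up to 0.829% of fibroblasts with a UMI in Ime, 0.612% in Met and 0.601% in CT. Slc22a5, the carnitine transporter, had 32.5, 28.7 and 25.7 CPM in Ime, Met and CT. Nuclear-encoded complex I, the respiratory complex that metformin is known to inhibit, had fibroblast medians of 0.03 in Ime over CT (17 genes) and 0.02 in Met over CT (29 genes), and 0.07 and 0.27 in other cells.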

How the data were processed

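Single-cell UMI counts per gene and cell were deposited by the authors as 3 filtered matrices, made with Cell Ranger 9.0.0 per the file headers. Bulk read counts per gene were deposited by the authors as a table of 45777 symbols. Per the submitters' processing notes, HISAT2, StringTie, FastQC and Trimmomatic were used and the builds mm10 and GRCm39 occur, with no roles stated. Other steps are not given in the sources used here. The gene lists and the members were chosen with earlier results of these data known.

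UMIs were summed over the fibroblasts of a matrix and scaled to CPM. Ratios were taken for genes with at least 100 UMIs summed over both matrices, with exact Poisson levels and conditional binomial intervals at 95%, and 2-fold marked a difference. Clusters came from scanpy 1.11.5 and leidenalg 0.10.2 (2000 variable genes, 15 principal components, 15 neighbours, resolution 0.5). Scrublet, as implemented in scanpy, called 0.0845% of cells in the Ime matrix, 0% in the Met matrix and 2.85% in the CT matrix, so it did not work in Ime and Met, and no doublets were removed beyond the rule. Bulk counts were fitted with edgeR 4.0.16 (TMM scaling, filterByExpr, quasi-likelihood test over all 9 libraries, 18665 genes, Benjamini-Hochberg adjustment, threshold 0.05) in R 4.3.3, with DESeq2 1.42.0 as an alternative. The scripts were tested on simulated data.

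Genes named were the 8 with the largest ratios each way among fibroblast-concentrated genes, the 5 each way among others, the 2 farthest of each list, the 6 genes of the rule and, in bulk, also the 5 with the smallest p each way; abundant genes and the other niche and matrix genes were chosen after their values were seen. A batch tag in the labels equals the replicate number, so libraries with the same number were paired by label. Their deviations had a mean correlation of 0.0929, with 3 of 9 pairs over 0.1, and -0.0467 for other pairs. Each batch holds 1 library of each group, which gives 1 difference a batch and no error within it. Alternatives were other marker numbers for the rule, thinning, other UMI minimums, leaving out cells with UMIs of other types or clusters led by other types, other scalings and filters, the block, and leaving out each library.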

Additional observations from a re-analysis of the deposited data

How the results depend on the processing

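For Ime over CT, where 66 genes (17 fibroblast-concentrated) were past 2-fold, the count was 126 (33) with at least 3 markers asked of a cell, 35 (6) with at least 5, 17 (6) without cells holding UMIs of other types, 458 (81) with at least 30 UMIs a gene and 13 (4) with at least 300; it was 40 over all genes after thinning. For Met over CT, with 240 (24), it was 35 (15) without cells holding UMIs of other types, 84 (14) after thinning, 677 (46) with 30 UMIs and 65 (5) with 300, and 40 fibroblast-concentrated genes by the mean CPM per cell. For Ime over Met, with 744 (136), it was 61 (29), 150 (45), 1718 (213) and 189 (44) under the same 4 settings. The share of fibroblasts in Ime, Met and CT was 10.9, 5.63 and 8.94% with at least 3 markers and 3.11, 2.48 and 3.64% with at least 5; thinned, it was 4.05% in Ime and 6.98% in Met. Without cells holding UMIs of other types (258, 32 and 150 cells left in Ime, Met and CT), medians changed sign for smooth muscle markers in Ime over CT (0.61) and Ime over Met (1.7) and for mitochondrially encoded genes in Met over CT (-0.50). Without clusters 3 and 7, an alternative chosen after seeing the data, smooth muscle markers in Ime over CT stood at 0.21. The cause was not tested. Of the named single-cell gene ratios recomputed, 1120 moved by less than their interval and 84 by more, and 0 of those past 2-fold changed sign. The alternative without called doublets was not run, since the caller failed.

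In bulk, the fibroblast-concentrated genes higher and lower were 1 and 33 with imeglimin over control, 1 and 153 with metformin over control, and 1 and 0 with imeglimin over metformin when the genes were held to 10 times other cells, which leaves fewer genes. DESeq2 gave 116 lower with imeglimin, 12 higher with metformin, and 44 higher and 5 lower with imeglimin over metformin. Shares over all genes were not counted for DESeq2, the other fits or left-out libraries. Genes higher with imeglimin over metformin numbered 1 with no filter and 0 with only both groups fitted. With the replicate block, they numbered 1, and the genes that fell with metformin numbered 246 and with imeglimin 60. Leaving out a library gave 2 to 5 higher and 25 to 69 lower with imeglimin, 6 to 8 higher and 100 to 235 lower with metformin, and 0 to 12 higher and 1 to 3 lower with imeglimin over metformin. The depth of the Ime matrix limits ratios of genes below 100 UMIs, which have no value here.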
